A study of Homo sapiens with 21 samples.

Results

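The potassium channel genes of stem cell-derived islets were the rows of the count table whose gene symbol starts with KCN. Of 123 such symbols, 27 were left out, namely antisense and similar transcripts with a hyphen in the symbol, pseudogenes, and 2 further genes excluded by name, and 96 of 62699 genes remained. These were 30 pore-forming subunits of voltage-gated channels, 10 electrically silent subunits that work only in assemblies with voltage-gated ones, 15 two-pore channels, 15 inward rectifiers, 8 channels opened by calcium or sodium ions, 16 auxiliary subunits and 2 other genes with the prefix. Counts were high enough to test for 85 of the 96. The rule reads gene symbols only and was set with earlier results of these data known.

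Potassium channels let potassium ions leave the cell and so pull the membrane potential down. In insulin-secreting cells, two-pore and ATP-sensitive channels set the resting potential, delayed rectifiers of the voltage-gated class end each action potential, and calcium-activated channels shape bursts of activity. Inward rectifiers of the G-protein-gated kind open when inhibitory receptors such as those for somatostatin or adrenaline are occupied, and thereby damp secretion.

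RNA was sequenced from 21 libraries of islet cells made from H1, an established human embryonic stem cell line. The 4 genotypes were unedited cells (WT) and lines labelled ISL1-/-, PAX6-/- and PDX1-/-, each named for a knocked-out transcription factor of the endocrine pancreas. On day 11 of differentiation the cells of every group received a lentivirus that carried the blue fluorescent protein BFP, either behind ISL1 (ISL1-IRES2-BFP) or without it, and cells with blue fluorescence were collected by sorting on day 18. WT BFP, WT ISL1 and PDX1-/- ISL1 had 2 libraries each and the other 5 groups had 3, described as biological replicates. The labels do not state how many clones stood behind a knockout line. Each group is a bulk mixture, so a change in the number of cells of a type and a change in RNA per cell cannot be told apart.

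The labels were checked against the targeted genes, in CPM, counts scaled to a common library size of 1e+06. ISL1 was at 306 and 519 in WT BFP and at 73.7, 74.6 and 82.4 in ISL1-/- BFP. ISL1-labelled libraries overlapped BFP-labelled ones in every genotype, with 361 and 337 in WT and 71.6, 85.1 and 96.8 in ISL1-/- cells. In PAX6-/- cells ISL1 was at 166, 126 and 356 with the ISL1 label against 209, 133 and 236 with BFP. In PDX1-/- cells it was at 138 and 313 against 153, 173 and 132. The libraries at 356 and 313 lay above their BFP groups, and both stand apart in other ways too. These counts thus did not check the vector, and the groups are called ISL1-labelled below. PAX6 in PAX6-/- BFP (143, 99.5 and 166) overlapped WT BFP (140.3 and 232), and PDX1 in PDX1-/- BFP (103, 116 and 113) lay above WT BFP (80.0 and 102), so these counts did not check those 2 labels, and PAX6-/- and PDX1-/- are used below as names from the labels. The summed CPM of the general endocrine markers CHGA, CHGB, SYP, NEUROD1 and INSM1 was 21444 to 26516 in WT BFP and not under 11658 in any library. Markers of other cells were present too: the liver genes ALB, AFP, APOA1 and FGB summed to 13355 to 15293 CPM in WT BFP and to between 3412 and 21422 in the other groups, and 8 mesenchyme markers to between 91.6 and 1875 over all groups. The immune markers PTPRC, CD68 and CD14 together stayed under 0.5 CPM. The median library held 50.4 M counts (36.8 to 60.2 M), of which the channel genes took 0.149 to 0.336%.

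A pair of libraries stood apart. Replicate 3 of PAX6-/- ISL1-labelled and replicate 4 of PDX1-/- ISL1-labelled had 3.165 and 3.843% mitochondrial counts, against 1.276 to 1.926% in the other 19. INS was at 25612 CPM in that PDX1-/- library and at 164 CPM in the other library of its group. Both also stood apart in KCNA6, a voltage-gated channel of the Shaker family, which is described with the levels below.

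For 6 members that changed in both ISL1-/- and PDX1-/- BFP cells and on which the results turn, the 250 bases before the most upstream RefSeq start (GRCh38.p14) are given 5′ to 3′ on the gene's strand. Capitals mark TAAT on either strand (ATTA on the printed strand), the short core that homeodomain proteins such as ISL1, PAX6 and PDX1 can bind. RefSeq windows were found for 73 of the 96 members. KCNIP1 lies at chr5:170353237-170353486, plus strand; KCNJ3 at chr2:154698445-154698694, plus strand; KCNK13 at chr14:90061744-90061993, plus strand; KCNS3 at chr2:17877597-17877846, plus strand. KCNJ8 lies at chr12:21774707-21774956, minus strand, and KCNJ13 at chr2:232776566-232776815, minus strand.
KCNIP1: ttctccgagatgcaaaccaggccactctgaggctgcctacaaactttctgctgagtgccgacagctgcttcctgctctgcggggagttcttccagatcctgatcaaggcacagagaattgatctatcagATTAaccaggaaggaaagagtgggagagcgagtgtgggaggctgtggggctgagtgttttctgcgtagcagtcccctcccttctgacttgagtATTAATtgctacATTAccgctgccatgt
KCNJ3: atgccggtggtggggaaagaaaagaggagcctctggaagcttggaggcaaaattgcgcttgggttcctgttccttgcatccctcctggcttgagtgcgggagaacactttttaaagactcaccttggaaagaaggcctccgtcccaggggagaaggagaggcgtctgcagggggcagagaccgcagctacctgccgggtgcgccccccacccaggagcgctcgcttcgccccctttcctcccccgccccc
KCNK13: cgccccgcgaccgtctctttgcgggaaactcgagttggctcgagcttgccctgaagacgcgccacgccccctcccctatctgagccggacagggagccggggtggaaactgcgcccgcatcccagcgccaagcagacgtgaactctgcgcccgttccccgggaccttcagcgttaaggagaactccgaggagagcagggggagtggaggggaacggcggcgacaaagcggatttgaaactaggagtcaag
KCNS3: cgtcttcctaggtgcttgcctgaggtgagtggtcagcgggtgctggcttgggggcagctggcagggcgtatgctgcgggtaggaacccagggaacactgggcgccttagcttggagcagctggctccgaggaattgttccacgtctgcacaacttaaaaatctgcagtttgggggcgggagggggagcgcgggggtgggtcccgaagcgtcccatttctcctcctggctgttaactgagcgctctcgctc
KCNJ8: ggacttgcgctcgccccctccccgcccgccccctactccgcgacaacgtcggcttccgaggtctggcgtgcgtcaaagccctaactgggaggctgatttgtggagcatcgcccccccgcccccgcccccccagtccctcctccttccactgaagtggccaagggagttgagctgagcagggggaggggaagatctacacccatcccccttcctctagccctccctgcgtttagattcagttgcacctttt
KCNJ13: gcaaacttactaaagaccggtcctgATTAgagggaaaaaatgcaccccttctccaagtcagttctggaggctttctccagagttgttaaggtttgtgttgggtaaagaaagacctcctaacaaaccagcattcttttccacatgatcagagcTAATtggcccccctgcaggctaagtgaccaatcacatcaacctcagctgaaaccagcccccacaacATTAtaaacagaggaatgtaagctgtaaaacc
KCNIP1 held 4 matches, of which 2 overlap, and KCNJ13 held 3, while the windows of KCNJ3, KCNK13, KCNS3 and KCNJ8 held 0. KCNIP1 and KCNS3 each have a second RefSeq start that is not printed. Of the 2 windows of KCNIP1 only 1, the printed window, held a match, and the 2 windows of KCNS3 held 0. Of all 35116 windows of this length in the table, 47.4% held at least 1 TAAT, as did 34.2% of the 111 windows of the channel genes. Windows of the channel genes were richer in G and C (median 64.0%) than all windows (58.0%). KCNIP1 at 52.0% and KCNJ13 at 45.2% were the most AT-rich of the 6 printed, and a match is a description of letters only.

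Two-pore channels had the highest levels. Levels of different genes are compared in RPKM, CPM divided by exon length in kb, since longer genes collect more reads. KCNK17, an alkaline-activated background channel, had a median of 233 RPKM over the 21 libraries (range 116 to 598). Its close relative KCNK16, the islet background channel, followed with a median of 112 (range 69.6 to 252). KCNK16 and KCNK17 together made up 54.1 to 84.6% of the summed RPKM of all 96 members in a library. Next was KCNH6, a voltage-gated channel of the ERG class, with a median of 46.6 and a range of 15.6 to 66.7. KCNK5, an alkaline-sensitive two-pore channel, had a median of 17.7, and the silent subunit KCNS3 had 12.2. The delayed rectifier KCNB2 (6.82), KCNA6 (6.71) and the ERG-class KCNH7 (6.46) followed.

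In WT BFP the order was KCNK17 (289 ± 88.6 RPKM, SD, n = 2), KCNK16 (217 ± 7.96), KCNH6 (45.5 ± 1.57) and KCNK5 (35.4 ± 5.14). KCNK17 and KCNK16 did not differ beyond their spread there, with KCNK17 at 470.4 and 731 CPM and KCNK16 at 416 and 439 CPM in the same libraries. In ISL1-/- BFP the gap was wider, at 259 ± 69.5 RPKM for KCNK17 against 86.4 ± 4.41 for KCNK16 (SD, n = 3). KCNB2 (6.33 ± 1.34), KCNH7 (6.93 ± 0.852) and KCNJ6 (5.65 ± 0.921) lay within each other's spread in WT BFP. A median of at least 1 RPKM was reached by 26 of the 96 members, and 30 had a median under 0.1 RPKM.

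**Figure D1:**
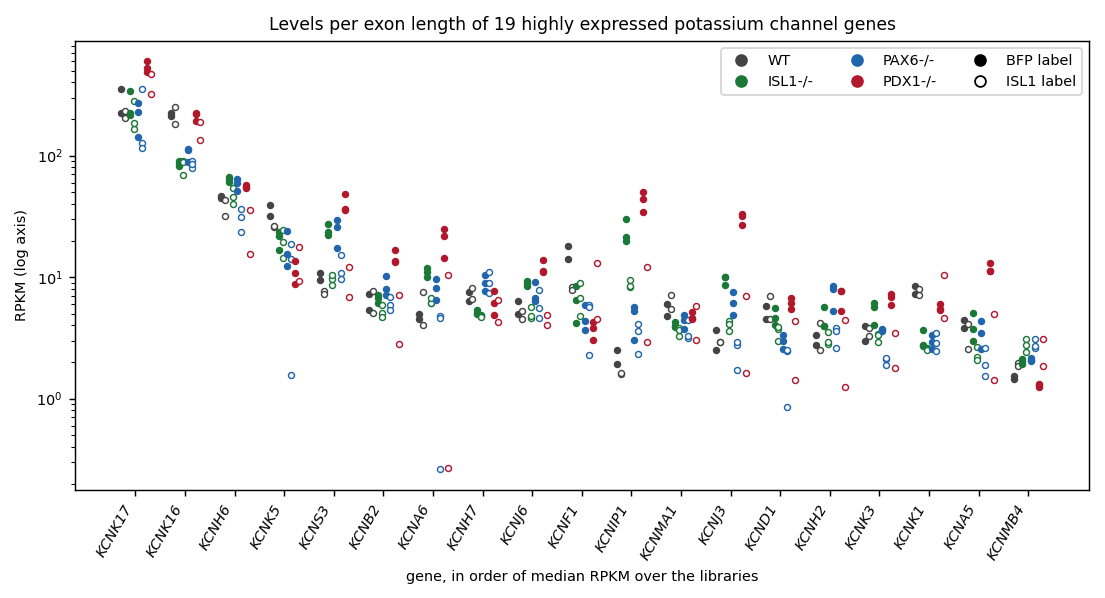
Levels of 19 of the 20 potassium channel genes with the highest median, in RPKM on a log axis, with 1 point per library (21 per gene), coloured by genotype and open for the ISL1 label. KCNK17 and KCNK16 lie above the rest, and 2 KCNA6 points lie far below the other 19.

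KCNA6 was at 20.0 and 18.1 CPM in WT BFP, 39.8, 47.5 and 43.7 in ISL1-/- BFP, 38.7, 26.0 and 32.2 in PAX6-/- BFP and 86.8, 57.3 and 98.8 in PDX1-/- BFP. In the ISL1-labelled groups it was at 30.3 and 16.0 (WT), 24.4, 24.6 and 26.8 (ISL1-/-), 19.1, 18.3 and 1.05 (PAX6-/-) and 41.4 and 1.07 (PDX1-/-). The libraries at about 1 CPM were the 2 that stood apart in mitochondrial share. KCNA6 was called in no comparison, and its PDX1-/- BFP difference from WT BFP was 2.09 ± 0.99 on the log2 scale (SE, adjusted p = 0.223). KCNK5 was lowest in 1 of these, replicate 3 of PAX6-/-: it was at 53.4, 70.8 and 5.94 CPM in PAX6-/- ISL1-labelled cells and at 67.1 and 34.9 in PDX1-/- ISL1-labelled cells. In BFP-labelled cells KCNK5 was at 148 and 120.0 in WT, 88.9, 82.6 and 62.9 in ISL1-/-, 47.0, 91.1 and 59.1 in PAX6-/- and 51.3, 33.1 and 41.3 in PDX1-/-, and with the ISL1 label at 96.9 and 100.3 in WT and 91.8, 73.3 and 54.3 in ISL1-/-. All knockout BFP libraries of KCNK5 lay below both WT BFP libraries, yet no comparison called it (adjusted p = 0.0829 for PDX1-/-). Such separation in either direction was common, at 57, 55 and 55 of 85 tested members in ISL1-/-, PAX6-/- and PDX1-/- BFP. The share over all genes was not counted, so these numbers say nothing particular about the members.

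Over the 8 groups together, 51 of the 85 tested members varied at an adjusted p under 0.05 in edgeR's quasi-likelihood test, or 60%, where 22.5% of all 25884 tested genes did. By class these were 8 of 9 silent subunits, 16 of 28 voltage-gated channels, 8 of 13 two-pore channels, 7 of 12 inward rectifiers, 5 of 7 calcium- or sodium-activated channels, 7 of 15 auxiliary subunits and 0 of 1 other gene. The lowest adjusted p among the members was that of KCNIP1 (2.6e-06), followed by KCNK13 (4.41e-06), KCNJ3 (8.13e-06), KCNS3 (1.73e-05) and KCNK16 (2.44e-05). In the 13 comparisons between groups, 40 members were called at least once, and the share over all genes was not counted for this.

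In ISL1-/- BFP cells 8 members rose and 9 fell against WT BFP. The largest rise was in KCNIP1, which encodes a calcium sensor that binds voltage-gated channels of the A type, and the largest falls were in inward rectifiers and a channel of the M-current class. The 17 of 85 called members (20%) compare with 5.59% of all genes tested, 1.67% for rises and 3.92% for falls. The median log2 fold change was 0.18 over the members and 0.025 over all genes. The 3 knockout comparisons share the same 2 WT BFP libraries, so their results are not independent of each other. Lack of overlap between groups this small was common. It held for 57 of 85 tested members here, 17 of them called, and for 55 each in PAX6-/- and PDX1-/- BFP. The share over all genes was not counted. It was also a condition for naming genes by size of change, so it is no further evidence for those genes. Markers of islet cell types moved as well. Of the alpha cell markers 4 of 5 fell, with a sum of 567 to 624 CPM in ISL1-/- BFP against 40325 to 54987 in WT BFP. All 4 delta cell markers fell (39.1 to 67.1 against 399 to 533 CPM), as did the PP cell marker PPY. Of the 5 beta cell markers IAPP and G6PC2 fell and NKX6-1 rose, and ALB fell among 4 liver markers. In the other direction, 4 of 5 genes of serotonin-producing enterochromaffin cells (TPH1, LMX1A, SLC18A1 and DDC) rose, and the list summed to 2161 to 2908 CPM in ISL1-/- BFP against 844 to 979.6 in WT BFP. Of 8 neuron markers 3 rose, with sums of 299.7 to 399.6 and 245 to 397 CPM. The 9 cardiac and smooth muscle markers had a median log2 fold change of 2.63, with 0 called. The part of these cell types in the channel results was not tested.

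KCNIP1 (gene ENSG00000182132.15, chr5:170353487-170736632 on GRCh38) was at 6.53 and 8.49 CPM in WT BFP and at 71.5, 66.4 and 102 in ISL1-/- BFP. Every ISL1-/- library lay above every WT library, a 10.6-fold rise (log2 fold change 3.41 ± 0.49 (SE), adjusted p = 0.000511). KCNK13, a two-pore channel of the halothane-inhibited kind, was at 0.462 and 1.33 CPM in WT BFP and 6.13, 5.10 and 8.41 CPM in ISL1-/- BFP, and rose 7.41-fold (log2 fold change 2.89 ± 0.42 (SE), adjusted p = 0.000586). Its log2 fold change was 2.30 without WT BFP replicate 1 and 3.82 without WT BFP replicate 3, and the call held in both. KCNJ3, a subunit of the G-protein-gated inward rectifier, was at 12.2 and 18.0 CPM in WT BFP against 49.5, 41.9 and 49.7 CPM (log2 fold change 1.64 ± 0.42 (SE), adjusted p = 0.0283). These 3 genes did not overlap between the groups. The fast-gating voltage-gated channel KCNC1 was at 1.10 and 1.12 CPM in WT BFP against 3.65, 2.39 and 3.31 CPM (log2 fold change 1.49 ± 0.36 (SE), adjusted p = 0.0201). The silent subunit KCNS3, which modifies delayed rectifiers, was at 29.6 and 34.0 CPM in WT BFP against 68.8, 74.1 and 85.3 CPM (log2 fold change 1.26 ± 0.29 (SE), adjusted p = 0.0144). KCNN4, an intermediate-conductance calcium-activated channel, also rose (log2 fold change 1.34).

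Among the falls, KCNJ8 encodes the pore of the ATP-sensitive channel of blood vessel walls. It was at 15.4 and 21.4 CPM in WT BFP and 2.12, 1.92 and 1.43 CPM in ISL1-/- BFP, a 10.1-fold fall (log2 fold change -3.33 ± 0.61 (SE), adjusted p = 0.0031). ABCC9, the regulatory subunit that joins KCNJ8 in that channel, went from 4.20 and 5.83 to 0.354, 0.589 and 0.404 CPM (log2 fold change -3.47 ± 0.50, SE). The summed endothelium markers were at 15.4 to 25.4 CPM in WT BFP and 4.48 to 7.14 in ISL1-/- BFP with 0 of 4 called, and the mesenchyme markers at 217 to 1233 and 136 to 343 with 0 of 8 called. The part of vessel and stromal cells in the fall was not tested. KCNJ16, an inward rectifier of kidney and brain, was at 1.93 and 1.93 CPM in WT BFP against 0.283, 0.260 and 0.171 CPM (log2 fold change -3.01 ± 0.52 (SE), adjusted p = 0.00198). KCNJ13, an inward rectifier of transporting epithelia, was at 5.38 and 5.95 CPM in WT BFP against 0.708, 0.901 and 1.10 CPM (log2 fold change -2.64 ± 0.73 (SE), adjusted p = 0.0412). In each case the groups did not overlap. The KCNJ13 call held in 6 of 21 fits that left out 1 library, and in 0 of the 5 that left out a library of these groups. KCNQ5, a subunit of the M current that holds neurons below threshold, was at 3.74 and 0.967 CPM in WT BFP against 0.372, 0.225 and 0.0622 CPM (log2 fold change -3.43 ± 0.90 (SE), adjusted p = 0.0316), with WT libraries that differed widely. Its log2 fold change was -2.14 without WT BFP replicate 1, -4.09 without WT BFP replicate 3 and -4.04 without ISL1-/- BFP replicate 1, and the call was lost in the first and the last of these. The KCNQ5 call was also lost without ISL1-/- BFP replicate 2 or 3. The silent subunit KCNG1 was at 5.85 and 1.48 CPM in WT BFP against 0.708, 0.555 and 0.949 CPM (log2 fold change -2.31 ± 0.65 (SE), adjusted p = 0.0436), again with unlike WT libraries: the log2 fold change was -1.003 without WT BFP replicate 1, where the call was lost, and -2.98 without WT BFP replicate 3. The KCNG1 call held in 11 of 21 fits that left out 1 library, and was lost without any 1 of the ISL1-/- BFP libraries. KCNK16 was at 416 and 439 CPM in WT BFP against 161, 172 and 178 CPM (log2 fold change -1.33 ± 0.20 (SE), adjusted p = 0.000835), with close replicates in both groups and no overlap. The background channel KCNK1 was at 30.1 and 25.8 CPM in WT BFP against 9.79, 9.64 and 12.9 CPM (log2 fold change -1.38 ± 0.27 (SE), adjusted p = 0.00483). The remaining falls were KCNA3, a Shaker-family channel, with a log2 fold change of -1.78, and KCNH1, of the EAG class, with -2.52 at a mean under 1 CPM in both groups.

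Leaving out 1 library changed how many were called: 7 without WT BFP replicate 1, 10 without WT BFP replicate 3, 9 without ISL1-/- BFP replicate 1, 7 without ISL1-/- BFP replicate 3 and 27 without either library of PDX1-/- ISL1-labelled, which enters only through the shared spread. The calls of KCNA3, KCNIP1, KCNK16, KCNJ8, KCNK13 and KCNJ16 held in all 21 such fits. Without both libraries that stood apart, 39 members were called.

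**Figure D2:**
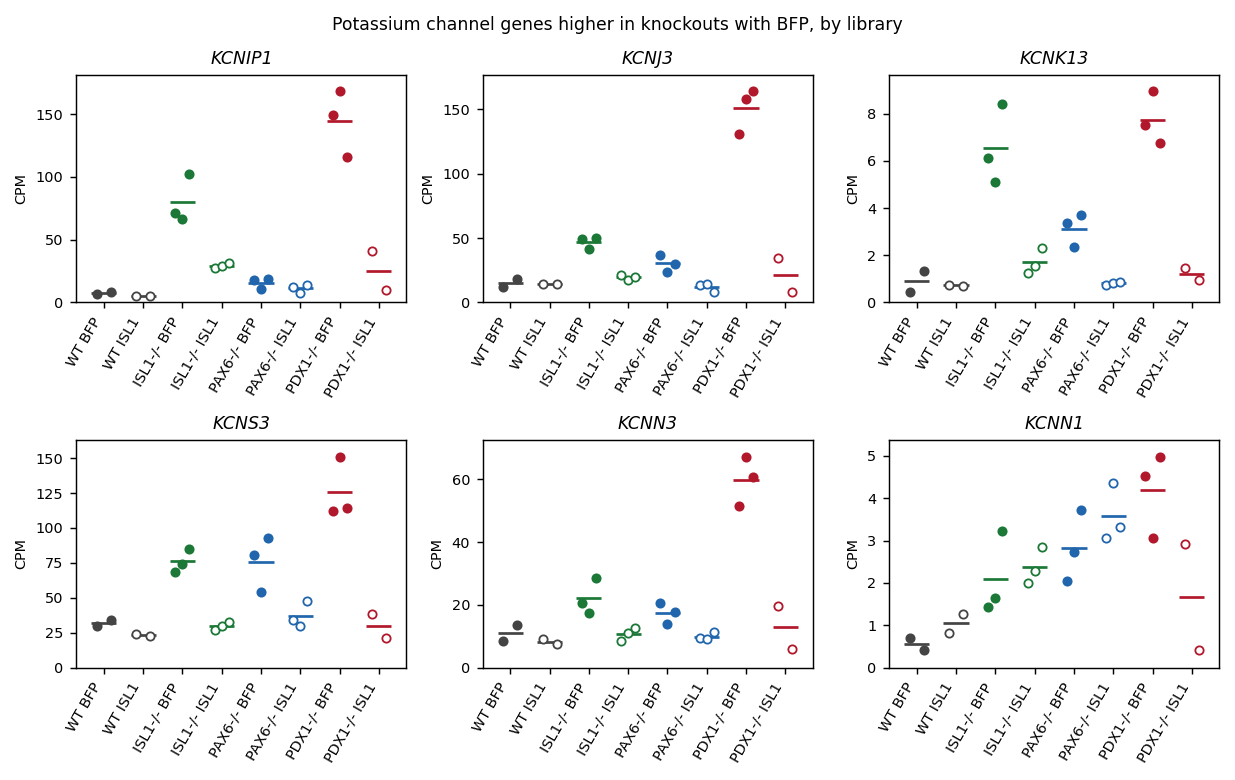
CPM by library for 6 members that were higher in knockouts with BFP, with 1 point per library, a bar at the group mean, filled points for the BFP label and open points for the ISL1 label. PDX1-/- BFP libraries were the highest for KCNIP1 (116 to 168 CPM) and KCNJ3 (131 to 164 CPM).

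In PDX1-/- BFP cells 14 members rose and 8 fell against WT BFP. Rises took in 6 of 28 tested voltage-gated channels, both G-protein-gated subunits that are paired in neurons (KCNJ3 and KCNJ6), and a pair of small-conductance calcium-activated channels (KCNN1 and KCNN3). Falls took in 3 of 9 silent subunits and 3 of 12 inward rectifiers. The 22 of 85 called members (25.9%) compare with 9.68% of all genes, 4.03% for rises and 5.65% for falls, and the medians were 0.22 for the members and 0.027 for all genes. All 5 enterochromaffin markers rose too, with a sum of 3583 to 4234 CPM, as did 4 of 8 neuron markers, with a sum of 502 to 610.1, and 1 of 5 general endocrine markers (sum 47914 to 53627). Of the 5 beta cell markers INS, IAPP and G6PC2 fell and NKX6-1 rose, with a sum of 451 to 513 CPM against 5843 to 7327 in WT BFP. Of the delta cell markers 2 of 4 fell (42.2 to 73.3 CPM), of the alpha cell markers 1 of 5 (16704 to 21542 CPM), of the liver markers 3 of 4 (3412 to 3861 CPM), and of the cell cycle genes 1 of 4. The part of these cell types in the channel results was not tested.

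KCNIP1 was at 149, 168 and 116 CPM in PDX1-/- BFP, above both WT BFP libraries (6.53 and 8.49), a 19.2-fold rise (log2 fold change 4.26 ± 0.51 (SE), adjusted p = 0.00018). KCNJ3 (gene ENSG00000162989.5, chr2:154697855-154858354) was at 131, 158 and 164 CPM against 12.2 and 18.0, a 9.98-fold rise (log2 fold change 3.32 ± 0.46 (SE), adjusted p = 0.000416). Its partner KCNJ6 was at 221, 275 and 224 CPM against 99.9 and 126 (log2 fold change 1.09 ± 0.24 (SE), adjusted p = 0.00799). For all 3 genes, every knockout library lay above every WT library. KCNK13 was at 7.54, 8.95 and 6.75 CPM against 0.462 and 1.33 (log2 fold change 3.13 ± 0.42 (SE), adjusted p = 0.000385), with log2 fold changes of 2.54 without WT BFP replicate 1 and 4.06 without WT BFP replicate 3, both called. KCNN3, a small-conductance channel that calcium opens after a spike, was at 51.4, 67.2 and 60.7 CPM against 8.44 and 13.6 (log2 fold change 2.44 ± 0.41 (SE), adjusted p = 0.00137). Its relative KCNN1 was at 4.53, 3.07 and 4.98 CPM against 0.703 and 0.423 (log2 fold change 2.88 ± 0.62 (SE), adjusted p = 0.00647). KCNS3 was at 112, 151 and 114 CPM against 29.6 and 34.0 (log2 fold change 1.98 ± 0.30 (SE), adjusted p = 0.000635), and its groups too did not overlap.

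The delayed rectifier KCNB2 rose in PDX1-/- BFP, at 50.5, 49.9 and 63.0 CPM against 20.2 and 27.3 in WT BFP (log2 fold change 1.20 ± 0.32 (SE), adjusted p = 0.0232). The acid-sensitive two-pore channel KCNK3 was at 44.7, 42.2 and 36.2 CPM against 24.6 and 18.5 (log2 fold change 0.93 ± 0.26 (SE), adjusted p = 0.0283), a smaller rise without overlap. KCNH4, of the ELK class, reached 0.997, 1.30 and 1.11 CPM from 0.132 and 0.181 (log2 fold change 2.86 ± 0.84 (SE), adjusted p = 0.0384), resting on 6 counts in each WT library. The log2 fold changes of the other called rises were 2.16 for KCNH3, 1.52 for KCNA5 and 1.40 for KCNC1, whose libraries held 3.78, 1.91 and 3.10 CPM.

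KCNJ13 fell furthest, to 0.499, 0.375 and 0.612 CPM from 5.38 and 5.95 (log2 fold change -3.52 ± 0.76 (SE), adjusted p = 0.00686). KCNJ8 was at 4.92, 3.57 and 3.13 CPM (log2 fold change -2.25 ± 0.59 (SE), adjusted p = 0.0216). Of 4 endothelium markers 2 (PECAM1 and KDR) fell as well, with a sum of 1.70 to 5.53 CPM against 15.4 to 25.4 in WT BFP, and their part in the falls of KCNJ8 and of its partner ABCC9 was not tested. KCNJ5, another G-protein-gated subunit, was at 4.49, 4.48 and 3.37 CPM against 10.9 and 11.6 (log2 fold change -1.45 ± 0.42 (SE), adjusted p = 0.0371). Among the called G-protein-gated subunits KCNJ3 and KCNJ6 were thus higher and KCNJ5 lower. The KCNJ5 call held in 16 of 21 fits that left out 1 library, and in 0 of the 5 that left out a library of these groups. The silent subunit KCNF1 was at 9.85, 8.66 and 6.95 CPM against 41.0 and 32.2 (log2 fold change -2.11 ± 0.43 (SE), adjusted p = 0.00498). KCNG2, also silent, was at 0.499, 0.554 and 0.328 CPM against 2.90 and 1.60 (log2 fold change -2.28 ± 0.63 (SE), adjusted p = 0.0274). The other called falls had log2 fold changes of -1.39 (KCNK6), -1.16 (KCNV1) and -0.95 (KCNA3). KCNK16 overlapped WT BFP in PDX1-/- BFP, at 441, 431 and 378 CPM, with a log2 difference of -0.04 ± 0.21 (SE) that missed the threshold (adjusted p = 0.953). KCNK17 was at 1014, 1244 and 1089 CPM, above WT BFP in every library, and was not called (log2 fold change 0.89 ± 0.43, adjusted p = 0.232).

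The count of called members was 6 without WT BFP replicate 1, 8 without WT BFP replicate 3, 14, 12 and 13 without PDX1-/- BFP replicates 1, 2 and 3, and 36 without both libraries that stood apart. KCNN3, KCNS3, KCNJ3, KCNJ13, KCNIP1 and KCNK13 were called in all 21 fits that left out 1 library.

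**Figure D3:**
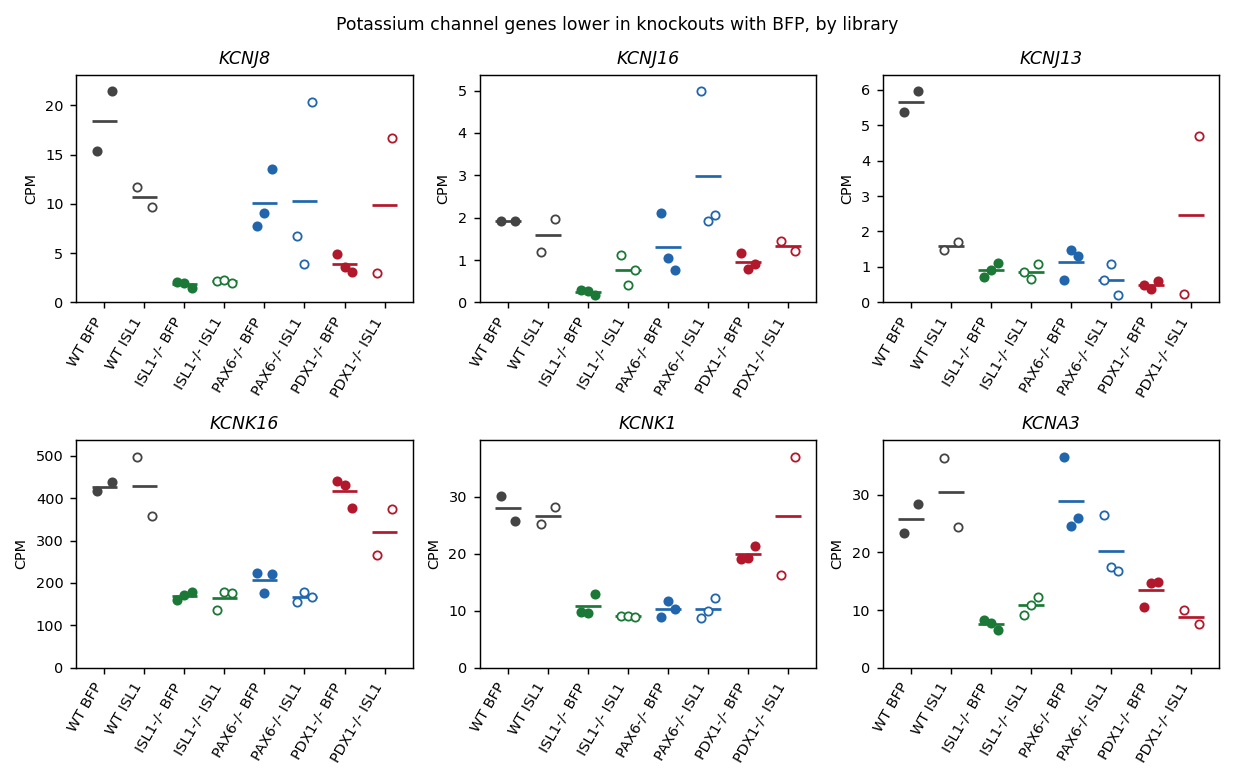
CPM by library for 6 members that were lower in at least 1 knockout with BFP, drawn as in the plot of rises. KCNK16 is at 416 and 439 CPM in WT BFP and at 223 CPM or less in ISL1-/- and PAX6-/- BFP, and its PDX1-/- BFP points overlap WT BFP.

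In PAX6-/- BFP cells 9 members rose and 6 fell, and each of these calls was lost when some single library was left out. The 15 of 85 called members (17.6%) compare with 5.51% of all genes, 2.25% for rises and 3.26% for falls, and the medians were 0.42 for the members and 0.033 for all genes. In these cells 1 of 5 enterochromaffin markers rose (sum 1309 to 2122 CPM), as did 3 of 8 neuron markers (sum 307 to 530.0) and both epsilon cell markers (sum 2525 to 3783 against 77.9 to 86.5 in WT BFP). Among the alpha cell markers GCG fell (1083 to 1834 CPM for the list of 5), as did IAPP and G6PC2 of 5 beta cell markers (781 to 1094 CPM), 3 of 4 delta cell markers (62.3 to 109.8 CPM) and PPY. Of the liver markers 3 of 4 fell (4727 to 6465 CPM), and of the endothelium markers 2 of 4 (2.53 to 4.77 CPM). The part of these cell types in the channel results was not tested. The falls were 3 silent subunits and 3 two-pore channels, and no inward rectifier was called.

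KCNN1 was at 2.05, 2.73 and 3.73 CPM in PAX6-/- BFP against 0.703 and 0.423 in WT BFP (log2 fold change 2.31 ± 0.60 (SE), adjusted p = 0.0322). KCNE3, a small single-span auxiliary subunit, was at 1.68, 1.12 and 0.719 CPM against 0.220 and 0.272 (log2 fold change 2.25 ± 0.59 (SE), adjusted p = 0.0326). KCNK10, a stretch-sensitive two-pore channel, was at 4.71, 4.43 and 2.29 CPM against 0.989 and 0.756 (log2 fold change 2.12 ± 0.61 (SE), adjusted p = 0.0496). KCNE3 and KCNK10 were not called in the other knockouts: KCNK10 was at 0.283, 0.208 and 0.140 CPM in ISL1-/- BFP and 0.561, 0.732 and 1.07 in PDX1-/- BFP. The KCNK10 call in PAX6-/- BFP held in only 3 of 21 fits that left out 1 library, and that of KCNE3 in 17. Of the 5 fits that left out a library of these groups, 0 kept KCNK10 and 1 kept KCNE3. KCNK13 was at 3.36, 2.34 and 3.69 CPM (log2 fold change 1.82 ± 0.40 (SE), adjusted p = 0.014), with log2 fold changes of 1.23 without WT BFP replicate 1, where the call was lost, and 2.75 without WT BFP replicate 3. The KCNK13 call was also lost without PAX6-/- BFP replicate 3. Called rises also included KCNS3 (81.0, 53.9 and 93.0 CPM, log2 fold change 1.26), KCNC1 (2.78, 4.27 and 2.40 CPM, 1.51) and KCNN4 (1.16, 1.57 and 1.23 CPM against 0.593 and 0.393, 1.40).

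KCNV2, a silent subunit known from the retina, was at 0.0622, 0.0893 and 0.0378 CPM in PAX6-/- BFP, or 3, 5 and 2 counts, against 1.25 and 0.846 CPM in WT BFP (log2 fold change -4.00 ± 0.91 (SE), adjusted p = 0.0161). KCNG2 was at 0.436, 0.375 and 0.284 CPM (log2 fold change -2.63 ± 0.63 (SE), adjusted p = 0.0219) and KCNF1 at 10.0, 13.4 and 8.44 CPM (log2 fold change -1.78 ± 0.43 (SE), adjusted p = 0.0218). All 3 silent subunits were below both WT libraries in every PAX6-/- library. Of the two-pore channels, KCNK6 was at 2.45, 3.36 and 3.35 CPM against 8.57 and 8.25 (log2 fold change -1.46 ± 0.35 (SE), adjusted p = 0.0212), KCNK1 at 8.96, 11.7 and 10.3 CPM (log2 fold change -1.44 ± 0.27 (SE), adjusted p = 0.00472) and KCNK16 at 223, 176 and 221 CPM (log2 fold change -1.05 ± 0.20 (SE), adjusted p = 0.00662). The call of KCNK1 was lost only without WT BFP replicate 1. In all, 0 members were called without WT BFP replicate 1, 2 without WT BFP replicate 3, and 5, 9 and 6 without PAX6-/- BFP replicates 1, 2 and 3. Without both libraries that stood apart the count was 36.

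**Figure D4:**
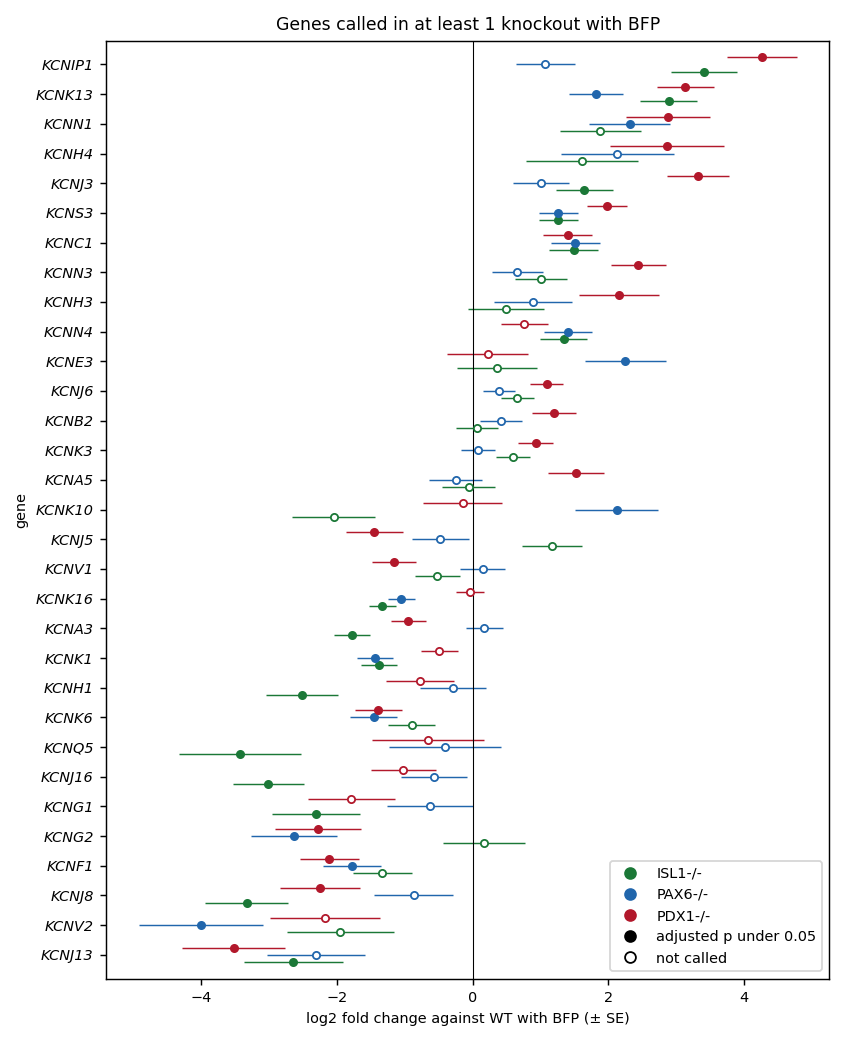
Log2 fold change against WT BFP with its SE for 31 of the 33 members called in at least 1 knockout with BFP, filled where the adjusted p was under 0.05. KCNIP1 is at the top, with 4.26 in PDX1-/- and 3.41 in ISL1-/-, and KCNJ13 at the bottom, with -3.52 in PDX1-/-.

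Direct comparisons of the knockouts, all with BFP, showed where they differed from each other. ISL1-/- against PAX6-/- called 12 members, 3 higher and 9 lower (14.1%, against 2.46% of all genes, 0.757% higher and 1.7% lower). ISL1-/- against PDX1-/- called 11, 2 higher and 9 lower (12.9%, against 5.07%, 2.73% higher and 2.34% lower), and PAX6-/- against PDX1-/- called 13, 5 higher and 8 lower (15.3%, against 3.04%, 1.52% in each direction). KCNIP1 was higher in ISL1-/- than in PAX6-/- by 2.35 ± 0.39 log2 units (SE, adjusted p = 0.00219) and lower in PAX6-/- than in PDX1-/- (-3.20 ± 0.40, adjusted p = 0.000224). It did not differ beyond the threshold between ISL1-/- and PDX1-/-, where the difference was -0.85 ± 0.37 (adjusted p = 0.228).

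KCNJ3 was lower in ISL1-/- (-1.68 ± 0.36, adjusted p = 0.0111) and in PAX6-/- (-2.31 ± 0.37, adjusted p = 0.00144) than in PDX1-/-. KCNJ5 went the other way, with 25.3, 23.9 and 26.9 CPM in ISL1-/-, 9.61, 10.4 and 4.24 in PAX6-/- and 4.49, 4.48 and 3.37 in PDX1-/-, and a log2 difference of 2.62 ± 0.40 between ISL1-/- and PDX1-/- (adjusted p = 0.00103). KCNK10 differed most between ISL1-/- and PAX6-/- (-4.17 ± 0.58, adjusted p = 0.000448). KCNK16 was lower in ISL1-/- (-1.29 ± 0.19, adjusted p = 0.000638) and PAX6-/- (-1.01 ± 0.19, adjusted p = 0.00451) than in PDX1-/-. KCNA3 was lower in ISL1-/- than in PAX6-/- (-1.94 ± 0.25, adjusted p = 0.000196), at 8.20, 7.83 and 6.60 against 36.6, 24.5 and 25.9 CPM. KCNG2 was higher in ISL1-/- (2.60, 3.08 and 1.96 CPM) than in PAX6-/- (log2 difference 2.80) or PDX1-/- (2.46). KCNH7, among the highest members by level, was at 25.2, 25 and 26.7 CPM in ISL1-/-, 52.1, 38.6 and 45.0 in PAX6-/-, 30.9, 38.5 and 24.5 in PDX1-/- and 31.7 and 37.7 in WT, and was called only between ISL1-/- and PAX6-/- (-0.82).

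Further members differed between the knockouts. KCNMB2, a subunit of the large-conductance channel, was lower in ISL1-/- than in PAX6-/- (-2.62) and PDX1-/- (-2.15). ISL1-/- was also below PAX6-/- in KCNE3 (-1.90, and -2.49 without ISL1-/- BFP replicate 1), KCNN2 (-1.90), KCNH1 (-2.23), KCNJ16 (-2.44) and KCNJ8 (-2.46), and above it in KCNJ5 (1.65). Below PDX1-/- it was in KCNK1 (-0.89), KCNB2 (-1.13), KCNN3 (-1.43), KCNA5 (-1.58), KCNA4 (-1.90) and KCNJ16 (-2.0). PAX6-/- was above PDX1-/- in KCNK10 (2.27), KCNE3 (2.03), KCNV1 (1.32), KCNA3 (1.11) and KCNMB4 (0.71). It was below PDX1-/- in KCNK3 (-0.85), KCNK1 (-0.95), KCNK13 (-1.31), KCNA5 (-1.77) and KCNN3 (-1.78). Some of these calls were unstable. Between PAX6-/- and PDX1-/-, those of KCNMB4, KCNK3 and KCNK1 held in 3, 4 and 6 of 21 fits that left out 1 library. Between ISL1-/- and PAX6-/-, those of KCNH7, KCNN2 and KCNE3 held in 6, 8 and 9. That of KCNK1 between ISL1-/- and PDX1-/- held in 6.

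The counts between knockouts moved with single libraries. For ISL1-/- against PAX6-/- the count was 7, 6 and 5 without ISL1-/- BFP replicates 1, 2 and 3, and 6 without PAX6-/- BFP replicate 1 or 3. For ISL1-/- against PDX1-/- it was 2 without ISL1-/- BFP replicate 1 or 2, and 7, 5 and 5 without PDX1-/- BFP replicates 1, 2 and 3. It was 21 without PAX6-/- ISL1-labelled replicate 3, and 22 and 20 without PDX1-/- ISL1-labelled replicates 2 and 4. For PAX6-/- against PDX1-/- it was 5, 6 and 8 without PAX6-/- BFP replicates 1, 2 and 3, 5, 5 and 7 without PDX1-/- BFP replicates 1, 2 and 3, and 21 without either PDX1-/- ISL1-labelled library. Without both libraries that stood apart the counts were 24, 31 and 36. KCNJ3 and KCNIP1 kept their calls between PAX6-/- and PDX1-/- in all 21 fits that left out 1 library.

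Few members were called for the ISL1 label in WT, ISL1-/- and PAX6-/- cells. In WT cells no member was called by edgeR (0.027% of all genes were), and DESeq2 called 2. An unadjusted edgeR p under 0.05 was found for 12 of 85 members and for 988 of all 25884 tested genes. The lowest adjusted p in WT belonged to KCNN4, at 2.48 and 2.17 CPM with the ISL1 label and 0.593 and 0.393 with BFP (log2 fold change 2.22 ± 0.38 (SE), adjusted p = 0.0525). KCNN2, a small-conductance calcium-activated channel, was at 22 and 24.6 CPM against 5.47 and 1.54 in WT, without overlap and without a call (log2 difference 2.72 ± 0.60, adjusted p = 0.212). The count was 1 without ISL1-/- ISL1-labelled replicate 3, PAX6-/- ISL1-labelled replicate 3 or either PDX1-/- ISL1-labelled library, and 5 without both libraries that stood apart.

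In ISL1-/- cells the label called 3 members, 1 higher and 2 lower, against 0.382% of all genes, 0.251% higher and 0.131% lower. These comparisons use the same knockout BFP libraries as those against WT BFP, so a high BFP value enters both. The enterochromaffin markers summed to 996 to 1264 CPM with the ISL1 label against 2161 to 2908 with BFP, with 1 of 5 (DDC) called lower, and GCG and HHEX, of the alpha and delta cell markers, were called higher. The part of these cells was not tested. KCNN2 was at 8.42, 7.23 and 4.36 CPM with the ISL1 label and 0.744, 1.27 and 1.12 with BFP (log2 fold change 2.67 ± 0.50 (SE), adjusted p = 0.0206). KCNK13 was at 1.25, 1.56 and 2.29 CPM against 6.13, 5.10 and 8.41 (log2 fold change -1.94 ± 0.34 (SE), adjusted p = 0.0135), and KCNS3 at 27.2, 30.2 and 32.9 CPM against 68.8, 74.1 and 85.3 (log2 fold change -1.34 ± 0.25 (SE), adjusted p = 0.0206). None of the 3 overlapped between labels, and each call was lost when some single library was left out. The count was 1 without ISL1-/- BFP replicate 1 or 2, 0 without ISL1-/- BFP replicate 3 or without ISL1-labelled replicate 1 or 2, 11 without either PDX1-/- ISL1-labelled library, and 18 without both libraries that stood apart. KCNIP1, at 27.7, 28.6 and 31.6 CPM with the ISL1 label, and KCNJ3, at 21.4, 17.8 and 20.0, lay below their BFP libraries without passing the test (adjusted p = 0.141 and 0.191).

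In PAX6-/- cells 2 members were called, KCNK13 lower and KCNN4 higher, against 0.355% of all genes, 0.17% higher and 0.185% lower. Same-numbered libraries of this comparison met the rule for pairing. With the replicate number as a block, fitted as an effect shared by all 8 groups, 9 members were called. This fit is not a pairing of the PAX6-/- libraries alone. KCNN4 was again the 1 higher, and KCNK13 was joined by KCNJ3 (blocked log2 difference -1.32), KCNS3 (-1.04), KCNH6 (-0.94), KCNK3 (-0.84), KCNA4 (-1.63), KCNH2 (-1.06) and KCNN3 (-0.82). The beta cell marker NKX6-1 and 1 of 5 enterochromaffin markers were called lower in this comparison and the delta cell marker HHEX higher, and the part of these cells was not tested. KCNK13 was at 0.718, 0.835 and 0.860 CPM with the ISL1 label and 3.36, 2.34 and 3.69 with BFP (log2 fold change -1.96 ± 0.35 (SE), adjusted p = 0.0198). KCNN4 was at 3.80, 2.80 and 3.61 CPM against 1.16, 1.57 and 1.23 (log2 fold change 1.36 ± 0.29 (SE), adjusted p = 0.0493). Groups did not overlap for either gene. All genes shifted by a median of 0.106 log2 units in this comparison, and the members by -0.25. The count was 0 without PAX6-/- BFP replicate 1 or 3 or ISL1-labelled replicate 1, 8 without either PDX1-/- ISL1-labelled library, and 1 without PAX6-/- BFP replicate 2, without ISL1-labelled replicate 3, or without 1 of 12 libraries of the other groups. Without ISL1-labelled replicate 3, which stood apart, the call of KCNK13 held and that of KCNN4 was lost. The count was 11 without both libraries that stood apart.

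In PDX1-/- cells 12 members were lower and 3 higher with the ISL1 label, against 4.33 and 8.19% of all genes, and 12.5% in either direction. These calls depended on the model: voom with sample weights and a fit on only the 2 groups compared each called 0 members, where the lowest adjusted p of any of the 15 genes was that of KCNJ3 with voom (0.0756), and the replicate block called 7. The members' median was -0.38 and that of all genes 0.133. Of the 5 enterochromaffin markers 4 were lower, with a sum of 1274 to 1420.2 CPM, and 2 of 8 neuron markers were lower (sum 230.1 to 482), as were 2 of 5 general endocrine markers. Higher were 4 of 4 liver markers (6199 to 21422 CPM against 3412 to 3861 with BFP), 3 of 4 delta cell markers (251 to 1374 against 42.2 to 73.3 CPM), 3 of 5 beta cell markers (241 to 25703 against 451 to 513 CPM, with NKX6-1 lower), 1 of 5 alpha cell markers (14428 to 120284 CPM), 2 of 4 cell cycle genes and 1 of 5 pancreatic progenitor markers. The beta cell rises came from replicate 4. INS was at 164 and 25612 CPM in replicates 2 and 4 against 186, 163 and 87.5 with BFP. IAPP was at 0.617 and 19.0 against 0.312, 0.607 and 0.306, and G6PC2 at 1.22 and 49.0 against 1.29, 2.25 and 1.51. The alpha cell marker GCG was at 11659 and 106084 against 14965, 19603 and 16279.8, so replicate 2 lay below the BFP libraries. The part of these cell types was not tested. The group has 2 libraries that were unlike each other, and replicate 4 is one of those that stood apart, so the values of both are given for each gene named. KCNJ3 was at 34.4 CPM in replicate 2 and 7.94 CPM in replicate 4, below all 3 BFP libraries (131, 158 and 164; log2 fold change -2.83 ± 0.44 (SE), adjusted p = 0.00106). KCNIP1 was at 41.0 and 9.81 CPM in replicates 2 and 4, against 149, 168 and 116 with BFP (log2 fold change -2.50 ± 0.46 (SE), adjusted p = 0.00304). KCNK13 was at 1.45 and 0.948 CPM against 7.54, 8.95 and 6.75 (log2 fold change -2.68 ± 0.41 (SE), adjusted p = 0.000915). In all 3, replicate 4 was the lower library and replicate 2 was already below every BFP library. KCNN3 was at 19.8 and 5.99 CPM against 51.4, 67.2 and 60.7 (log2 fold change -2.21 ± 0.40 (SE), adjusted p = 0.00288). KCNS3 was at 38.3 and 21.5 CPM against 112, 151 and 114 (log2 fold change -2.07 ± 0.30 (SE), adjusted p = 0.000539). KCNJ6 was at 97.0 and 80.4 CPM against 221, 275 and 224 (log2 fold change -1.44 ± 0.24 (SE), adjusted p = 0.00186).

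The large-conductance auxiliary subunit KCNMB4 was higher, at 15.0 and 9.07 CPM against 6.44, 6.04 and 6.29 (log2 fold change 0.95 ± 0.20 (SE), adjusted p = 0.00772). KCNN4 was at 3.09 and 1.45 CPM against 0.789, 0.804 and 0.940 (log2 fold change 1.43 ± 0.32 (SE), adjusted p = 0.00929). KCNG2 was at 0.423 and 5.10 CPM against 0.499, 0.554 and 0.328 (log2 fold change 2.55 ± 0.63 (SE), adjusted p = 0.0154), so replicate 2 lay within the BFP range and replicate 4 far above it. Lower calls that were lost without replicate 4 included KCNB2 (26.9 and 10.5 CPM against 50.5, 49.9 and 63.0), KCNH6 (151 and 65.6 against 241, 229.8 and 229), KCNK3 (21.6 and 11.1 against 44.7, 42.2 and 36.2), KCNA5 (14.4 and 4.12 against 32.9, 37.8 and 32.5) and KCNG3 (1.22 and 0.978 against 3.43, 3.91 and 2.60). In each of these, both ISL1-labelled libraries lay below the BFP range.

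Without replicate 4, 9 members were called, and without replicate 2, 38 were; each of these fits has 1 ISL1-labelled library, assumed to vary like the other groups, whose spread alone the test then uses. The calls of 7 members held in every fit that left out 1 library: KCNN3, KCNS3, KCNJ3, KCNIP1, KCNMB4, KCNK13 and KCNJ6. Fits with replicate 2 alone gave log2 fold changes of -2.13 for KCNJ3, -1.81 for KCNIP1 and -2.42 for KCNK13, and fits with replicate 4 alone gave -4.26, -3.89 and -3.04. Without replicate 2 the log2 fold change was -3.33 for KCNN3, -2.39 for KCNB2, -3.07 for KCNA5 and -1.84 for KCNH6, and KCNN4, at 0.77, was no longer called. Without replicate 4 it was -1.59 for KCNN3 and -1.25 for KCNA5. KCNG2 went from 3.445 with replicate 4 alone to -0.12 with replicate 2 alone. Without PAX6-/- ISL1-labelled replicate 3, 24 were called.

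**Figure D5:**
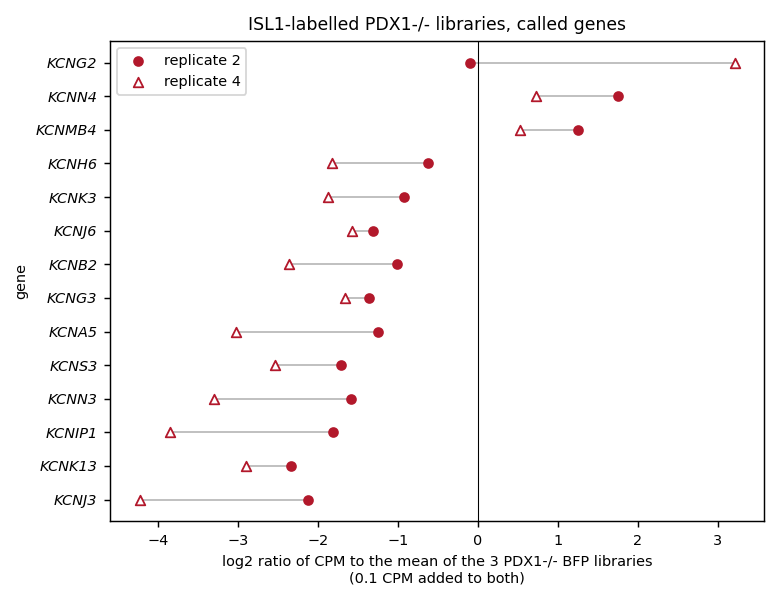
Log2 ratio of each ISL1-labelled PDX1-/- library to the mean of the 3 PDX1-/- BFP libraries, with 0.1 CPM added, for 14 of the 15 called members. Both libraries lie on the same side of 0 for all genes drawn except KCNG2, and replicate 4 lies further from 0 than replicate 2 for KCNJ3 and KCNIP1.

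The difference between the effect of the label in a knockout and its effect in WT was tested directly. No member passed for ISL1-/- (0.00386% of all genes did) or PAX6-/- (0% did) in edgeR, and DESeq2 called 0 in either. An unadjusted edgeR p under 0.05 was found for 10 and 14 of 85 members, against 769 and 916 of all 25884 tested genes. For PDX1-/-, 1 of 85 members passed (1.18%), a share near the 1.19% of all genes. This was KCNJ3, whose log2 effect in PDX1-/- minus that in WT was -2.76 ± 0.61 (SE, adjusted p = 0.034). In WT, KCNJ3 was at 14.4 and 14.4 CPM with the ISL1 label and 12.2 and 18.0 with BFP. The WT labels overlapped. The call held in 9 of 21 fits that left out 1 library, with log2 differences from -4.19 to -2.06, and was lost without any of the 4 WT libraries or of the 3 PDX1-/- BFP libraries. Voom with sample weights (adjusted p = 0.0881) and a fit on only the 4 groups compared (adjusted p = 0.299) did not call KCNJ3 or any other member. Without PAX6-/- ISL1-labelled replicate 3, 8 members passed, without PDX1-/- ISL1-labelled replicate 2, which leaves 1 library in that group, 35 did, and DESeq2 called 14.

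Some members with known roles in islets were not called against WT BFP. KCNH6 was at 187 and 196 CPM in WT BFP, 255, 270.0 and 281 in ISL1-/-, 269, 215 and 251 in PAX6-/- and 241, 229.8 and 229 in PDX1-/- BFP, and with the ISL1 label at 182 and 134 in WT, 169, 192 and 226 in ISL1-/- and 131, 152 and 99.2 in PAX6-/- cells. All knockout BFP libraries lay above both WT BFP libraries. In each of these comparisons most tested members were separated in either direction. KCNMA1, the large-conductance calcium-activated channel, was with BFP at 190.2 and 239 CPM in WT, 152, 167 and 158 in ISL1-/-, 192, 146 and 175 in PAX6-/- and 177, 180.3 and 205 in PDX1-/- cells. With the ISL1 label it was at 283 and 215 in WT, 129, 151 and 146 in ISL1-/-, 124, 129 and 176 in PAX6-/- and 120.1 and 229 in PDX1-/- cells, and no comparison called it. KCNQ1, a voltage-gated channel of epithelia and heart, was low, with BFP at 2.81 and 1.33 CPM in WT, 1.79, 0.953 and 2.43 in ISL1-/-, 0.975, 3.05 and 1.80 in PAX6-/- and 2.62, 1.68 and 1.14 in PDX1-/- cells. With the ISL1 label it was at 5.10 and 3.65 in WT, 3.06, 2.94 and 2.50 in ISL1-/-, 2.31, 2.89 and 0.860 in PAX6-/- and 3.32 and 1.24 in PDX1-/- cells. Its groups overlapped in the comparisons with WT BFP, and its largest log2 difference there was -0.27 ± 0.57 (SE).

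Genes that work with potassium channels were counted on 5 lists of 72 genes, 68 of them tested. Against WT BFP, 2 rose and 4 fell in ISL1-/- BFP, where 1.67 and 3.92% of all genes did. In PAX6-/- BFP 6 rose and 2 fell (2.25 and 3.26% of all genes). In PDX1-/- BFP 8 rose and 7 fell (4.03 and 5.65% of all genes). With the ISL1 label 4 were higher and 20 lower in PDX1-/- cells (the 2 unlike libraries, with 8.19 and 4.33% of all genes called in these directions), and 0 were called in WT, ISL1-/- or PAX6-/- cells by edgeR.

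Partner proteins came first. LRRC38, an auxiliary subunit of the large-conductance channel, was at 3.47 and 3.69 CPM in WT BFP and 0.0708, 0.399 and 0.0311 in ISL1-/- BFP (log2 fold change -4.42 ± 0.98, SE, adjusted p = 0.0123), and at 0.291, 0.107 and 0.153 in PDX1-/- BFP (-4.28 ± 0.98, adjusted p = 0.00991). ABCC9 was at 1.25, 0.858 and 0.940 CPM in PDX1-/- BFP (-2.30 ± 0.48, adjusted p = 0.00556). DPP6, a partner of the A-type channels that KCNIP1 binds, rose in PDX1-/- BFP (0.87 ± 0.26, adjusted p = 0.0432). With the ISL1 label DPP6 was lower there, at 63.8 and 31.6 CPM in replicates 2 and 4 against 81.3, 77.2 and 95.3 with BFP (-0.83 ± 0.26, adjusted p = 0.047).

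Of 10 receptors and G-protein subunits that act on G-protein-gated channels, 6 were called lower in PDX1-/- cells with the ISL1 label, where 4.33% of all genes were, and 4 did not pass. The list's median log2 fold change was -1.02 and that of all genes 0.133. Of the somatostatin receptors, SSTR1 was at 27.0 and 9.84 CPM in replicates 2 and 4 against 68.0, 42.6 and 60.6 with BFP (-1.63 ± 0.44, SE). SSTR2 was at 383 and 322 against 686, 837 and 726 (-1.09 ± 0.30) and SSTR3 at 2.93 and 1.19 against 7.29, 4.70 and 7.43 (-1.64 ± 0.47). The adrenaline receptor ADRA2A was at 105 and 22.4 CPM against 299, 242 and 239.8 (-2.03 ± 0.52). The G-protein subunit GNAO1 was at 22.3 and 13.1 CPM against 48.5, 39.1 and 51.1 (-1.39 ± 0.33), and GNG4 at 79.6 and 94.6 against 155, 160.5 and 162 (-0.87 ± 0.27). In these 6 genes both ISL1-labelled libraries lay below all BFP libraries. SSTR5 was not called, at 2.61 and 7.65 CPM against 3.55, 3.04 and 3.30, with replicate 2 below and replicate 4 above the BFP libraries. Against WT BFP the single call on this list in PDX1-/- BFP was SSTR5, which fell (-2.07 ± 0.35, adjusted p = 0.0014).

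Of 15 calcium channel genes, 2 rose and 1 fell in ISL1-/- BFP, 2 rose and 1 fell in PAX6-/- BFP, and 2 rose and 2 fell in PDX1-/- BFP. Of all genes 5.59, 5.51 and 9.68% were called in these 3 comparisons, in either direction. The calcium channel subunit CACNB3 rose in ISL1-/- (1.45 ± 0.39, SE), PAX6-/- (1.48 ± 0.39) and PDX1-/- BFP (1.61 ± 0.39), against the same WT BFP libraries, and CACNA2D3 fell in all 3 (-1.75 ± 0.24, -2.75 ± 0.24 and -1.13 ± 0.24). Of 8 tested sodium channel genes 2 rose in PAX6-/- and 2 in PDX1-/- BFP, where 2.25 and 4.03% of all genes rose. The sodium channel SCN3A rose in PAX6-/- (2.40 ± 0.49) and PDX1-/- BFP (1.81 ± 0.48). So did the sodium leak channel NALCN, by 2.37 ± 0.59 and 2.35 ± 0.59 log2 units.

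Of the 85 tested members 12 were called among the 8 groups and in none of the 13 comparisons, namely KCNAB1, KCND1, KCND3, KCNE4, KCNH2, KCNH8, KCNIP3, KCNJ2, KCNK17, KCNK7, KCNS2 and KCNT1. A further 33 were called nowhere. The highest group medians among these were those of KCNMA1 (129 to 249 CPM over the 8 groups), KCNK5 (41.3 to 134 CPM), KCNA6 (18.3 to 86.8 CPM), KCNC4 (9.28 to 19.0 CPM) and KCNT2 (6.20 to 17.0 CPM), and most of the others were near or under 1 CPM. The 11 members with too few counts to test were KCNA10, KCNA7, KCNE2, KCNG4, KCNJ1, KCNJ18, KCNJ9, KCNK18, KCNK4, KCNQ1DN and KCNU1, none above 0.0891 RPKM in any library, and KCNJ18 and KCNK18 had 0 counts in all 21. Some exons are shared with other genes: 22.3% of KCNJ13, for example, lies opposite GIGYF2, and since no source used here gives the strand setting of the counting, reads of such pairs cannot be told apart. KCNJ12 and KCNJ18 are near-identical copies, so the counts of either are uncertain.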

How the data were processed

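The deposited table holds read counts per gene for 21 libraries; per the submitters' processing notes the authors used STAR 2.7.11b, featureCounts 2.1.1 and GRCh38. Strand and multi-mapping settings are not given in the sources used here. Counts were tested with edgeR 4.0.16 (quasi-likelihood, TMM scaling, filterByExpr with a minimum count of 10 and total of 15) in 1 model of all 21 libraries with a coefficient per group. P-values were adjusted by Benjamini-Hochberg over all 25884 tested genes, and a gene was called at an adjusted p under 0.05. The common biological coefficient of variation was 33.4%. CPM uses TMM library sizes and RPKM divides CPM by exon length. The edgeR steps were checked on simulated counts. Values in every library are given for the members with the largest called changes at 1 CPM or more without overlap between groups (up to 5 each way per comparison), the 8 highest by RPKM and 9 background genes of islet cells. For the label in WT, ISL1-/-, PAX6-/- and PDX1-/- cells, 39, 40, 22 and 37 of 85 tested members did not overlap, called or not. Here too the share over all genes was not counted. Members and lists were chosen with earlier results of these data known. The model has no term for pairing. Same-numbered ISL1-labelled and BFP-labelled PAX6-/- libraries met the rule for pairing, since their deviations correlated at 0.155, 0.391 and 0.333, and the members called with a replicate block are given beside that result. The block was fitted on all 21 libraries with replicate effects shared by every group, so it does not pair the PAX6-/- libraries alone. Alternatives were RLE scaling, no filter, DESeq2 1.42.0, limma 3.58.1 voom weights, only the compared groups, a replicate block, each library left out, and, chosen after seeing the data, both libraries that stood apart left out. The broken line of 1 gene, ANK2, was left out. The values of 2 members that were called in comparisons with WT BFP are not reported here, though they are included in the counts.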

Additional observations from a re-analysis of the deposited data

Results flagged for a closer look

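The effect of the ISL1 label on KCNJ3, the G-protein-gated inward rectifier subunit, was called different between PDX1-/- and WT cells by a test of the difference itself. The log2 effect in PDX1-/- minus that in WT was -2.76 (edgeR, adjusted p = 0.034). KCNJ3 was the only call among 85 tested members (1.18%), a share near the 1.19% of all genes. The PDX1-/- ISL1-labelled group has 2 libraries that were unlike each other. The label effect was -2.83 in PDX1-/- cells, where both ISL1-labelled libraries lay below all 3 BFP libraries, and the labels overlapped in WT cells. The call held in 9 of 21 fits that left out 1 library, and was lost with voom and sample weights (adjusted p = 0.0881) and in a fit on only the groups compared (adjusted p = 0.299), each of which called 0 members for this difference.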

How the results depend on the processing

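Counts of called members are given in the order ISL1-/-, PAX6-/- and PDX1-/- against WT, ISL1-/- against PAX6-/-, ISL1-/- against PDX1-/-, PAX6-/- against PDX1-/-, then the label in WT, ISL1-/-, PAX6-/- and PDX1-/- cells; by edgeR they were 17, 15, 22, 12, 11, 13, 0, 3, 2 and 15. Voom with sample weights gave 42, 42, 40, 28, 39, 33, 4, 23, 21 and 0, and 1, 1 and 0 for the label differences of ISL1-/-, PAX6-/- and PDX1-/- from WT. Fits on only the groups compared gave 37, 33, 40, 22, 32, 28, 4, 16, 0 and 0, and 0 for the PDX1-/- label difference. Without both libraries that stood apart the counts were 39, 36, 36, 24, 31, 36, 5, 18, 11 and 19, and 1, 1 and 6 for the label differences. The replicate block gave 28, 27, 33, 17, 25, 22, 1, 11, 9 and 7; only the PAX6-/- label comparison met the rule for pairing, and elsewhere the libraries share only a number. DESeq2 gave 17 for ISL1-/- against PDX1-/-, 2, 9 and 8 for the label in WT, ISL1-/- and PAX6-/- cells, and 14 for the PDX1-/- label difference. With no filter the label in WT and in PAX6-/- cells gave 1 each and the PDX1-/- label difference 6, and RLE scaling gave 1 for the label in PAX6-/- cells. Leaving out 1 library gave 7 to 27, 0 to 22, 6 to 28, 5 to 15, 2 to 22, 5 to 21, 0 to 1, 0 to 11, 0 to 8 and 9 to 38, and 0 to 35 for the PDX1-/- label difference. KCNG2 with the label in PDX1-/- cells reversed, to a log2 fold change of -0.12 without replicate 4 (3.445 without replicate 2), -0.10 without both libraries that stood apart and -0.18 with the replicate block. The causes were not tested. Shares of all genes under the other settings are not given here, so these counts cannot be read against them. Groups of 2 or 3 libraries limit the precision, and members under 1 CPM rest on few counts.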
